A study of Rattus norvegicus with 5 samples.

Results

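The transcripts of 10 immediate early genes of neuronal activity were followed in rat cortical neurons. The cultures had been given short hairpin RNA against 1 of 4 genes that act on chromatin, or were a control. The genes were taken by identifier from a list of immediate early genes, by a rule that uses no measured value, although earlier results of these data were known when the list was drawn up: Fos (ENSRNOG00000008015), Fosb (ENSRNOG00000046667), Junb (ENSRNOG00000042838), Egr1 (ENSRNOG00000019422), Egr2 (ENSRNOG00000000640), Arc (ENSRNOG00000043465), Nr4a1 (ENSRNOG00000007607), Nr4a2 (ENSRNOG00000005600), Npas4 (ENSRNOG00000020009) and Dusp1 (ENSRNOG00000003977). All 10 were present among the 14815 genes listed in each of the 4 comparisons. The cells were primary cortical neurons of Rattus norvegicus, taken at embryonic day 18 and grown for 21 days in vitro before RNA was harvested. The labels give 5 groups with 1 sample each: a control, and cultures given short hairpin RNA (shRNA) against Ehmt1, Smarcb1, Mll3 or Mbd5. An shRNA lowers its target transcript by RNA interference. The control is called GFP (green fluorescent protein) in the deposited tables, and whether it carried a hairpin is not stated. Strain, hairpin sequence, vector and the number of cultures behind a sample are not given in the sources used here either. The study's title names network hyperactivity as its subject, and the comparisons show how transcripts that respond to activity stood in each knockdown.

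Immediate early genes are transcribed within minutes of synaptic stimulation, without new protein synthesis. Calcium entry and the MAP kinase cascade act on factors already bound to their promoters, chiefly CREB at cyclic AMP response elements and SRF with its ternary complex partners at CArG boxes. Fos, Fosb and Junb encode subunits of the AP-1 transcription factor, Egr1 and Egr2 encode zinc finger factors, Nr4a1 and Nr4a2 encode orphan nuclear receptors, and Npas4 encodes a neuron-specific factor that is induced by calcium. Arc encodes an effector at the synapse that takes part in the removal of AMPA receptors, and Dusp1 encodes a phosphatase that switches MAP kinases off. The targeted genes act on chromatin: Ehmt1 is a histone H3 lysine methyltransferase, Smarcb1 a core subunit of the BAF remodelling complex, Mll3 (Kmt2c) a histone methyltransferase of enhancers, and Mbd5 a member of the methyl-CpG-binding domain family.

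The promoters of 4 members are shown, because Egr1 and Egr2 hold the same pair of elements at the same distance from their start and because Junb and Nr4a2 had the lowest unadjusted p-values among members with a promoter in the table. Each line gives the 250 bases upstream of the RefSeq start, 5′ to 3′ on the strand of the gene. Capitals mark CArG boxes and matches to TGACG, the core of a cyclic AMP response element, on either strand.
Egr1 (GRCr8 chr18:26736828-26737077, plus strand): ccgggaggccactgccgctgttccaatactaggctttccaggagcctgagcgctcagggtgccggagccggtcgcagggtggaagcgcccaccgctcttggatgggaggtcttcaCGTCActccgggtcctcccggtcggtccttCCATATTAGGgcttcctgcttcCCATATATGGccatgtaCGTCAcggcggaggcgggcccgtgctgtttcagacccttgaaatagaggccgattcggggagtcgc
Egr2 (GRCr8 chr20:21054442-21054691, minus strand): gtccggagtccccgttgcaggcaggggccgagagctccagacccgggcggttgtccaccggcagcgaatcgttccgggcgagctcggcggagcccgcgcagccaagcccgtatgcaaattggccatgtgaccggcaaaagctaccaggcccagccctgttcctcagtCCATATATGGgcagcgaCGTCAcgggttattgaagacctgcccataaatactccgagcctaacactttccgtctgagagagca
Junb (GRCr8 chr19:40080876-40081125, plus strand): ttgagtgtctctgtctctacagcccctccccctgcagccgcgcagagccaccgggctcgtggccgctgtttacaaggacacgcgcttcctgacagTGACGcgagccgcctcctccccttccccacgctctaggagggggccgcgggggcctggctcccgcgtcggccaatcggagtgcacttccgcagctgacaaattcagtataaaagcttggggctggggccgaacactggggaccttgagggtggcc
Nr4a2 (GRCr8 chr3:62104888-62105137, minus strand): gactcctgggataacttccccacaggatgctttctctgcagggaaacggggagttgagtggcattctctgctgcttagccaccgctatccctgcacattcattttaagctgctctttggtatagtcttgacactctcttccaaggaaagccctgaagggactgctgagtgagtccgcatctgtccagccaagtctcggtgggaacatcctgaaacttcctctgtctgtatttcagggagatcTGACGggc

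RefSeq promoters (build GRCr8) were matched for 8 of the 10 members, Fos and Arc not being among them. In both Egr1 and Egr2 a CArG box lay 83 to 74 bases upstream of the start and a TGACG match, on the opposite strand, 66 to 62 bases upstream. Egr1 held another CArG box 105 to 96 bases upstream. CArG boxes were thus present in 2 of 8 member promoters, against 1.5% of 33469 promoters of the same length. A TGACG match was present in 6 of 8, against 18.2% of all, with 4 matches in Nr4a1 and none in Fosb or Npas4. The full palindrome TGACGTCA, which contains TGACG on both strands, occurred in Dusp1 alone among the 8, 124 to 117 bases upstream, and in 1.59% of all promoters. The AP-1 sequence TGACTCA was in none of the 8 and in 4.05% of all. These matches describe letters in a window and carry no measure of binding.

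The deposited results are 4 tables, each of the control against one knockdown, with a mean normalized count, a log2 fold change, its standard error (SE) and p-values for each gene, and no value of a single library. The summed mean normalized counts of the genes lay between 9963180 (Ehmt1) and 12264200 (Mbd5) in the 4 tables. Depth per library and the number of libraries are unknown, so every error below is the one in the authors' deposited tables or is worked out from it, and may be technical. Neither headers nor labels say which group a positive value favours. If a positive value favours the knockdown for Ehmt1, and the control in the remaining 3, the tables imply the same control level, with an SD of 0.026 on the log2 scale over 6648 genes. The next closest of the 16 readings gave 0.14. Signs below follow this reading, so that a negative value is a lower level in the knockdown. The targeted genes themselves and the markers of neurons and glia were not analysed here, because the identifiers are not paired with symbols in the tables or in the reference used. In a bulk culture, fewer cells of a type and less RNA per cell cannot be told apart.

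The fold changes appeared to have been pulled toward 0, by an amount that could be estimated. SEs were highest at intermediate mean counts and fell again among the lowest, with a peak of 0.289 in the Ehmt1 table, 0.446 in Smarcb1, 0.561 in Mll3 and 0.314 in Mbd5. A prior centred on 0 whose SD is 2 times the highest SE gives this shape, though no header names one. Undoing that prior brought the control levels of the 4 tables to a median deviation of 0.00062 on the log2 scale over the 6648 genes, from 0.0074 with the values as deposited. The SD over the same genes fell less, from 0.026 to 0.014, so some genes still differed between the tables. For Fos the 4 tables then gave control levels of 364.2 to 364.6 normalized counts, for Egr1 140.8 to 141.0 and for Arc 130.7 to 130.8. With the sign of the Mbd5 table turned round, its control level of Fos would have been 181. With that of the Smarcb1 table turned round, its control level of Nr4a2 would have been 151, against 83.3 to 83.5 in the other tables. The levels given below are these group means, on one scale for all 5 groups, with the control averaged over the tables. Percentages of the control are the fold changes of a single table, and their 95% intervals include the error of the control and are not adjusted for the number of genes.

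**Figure D1:**
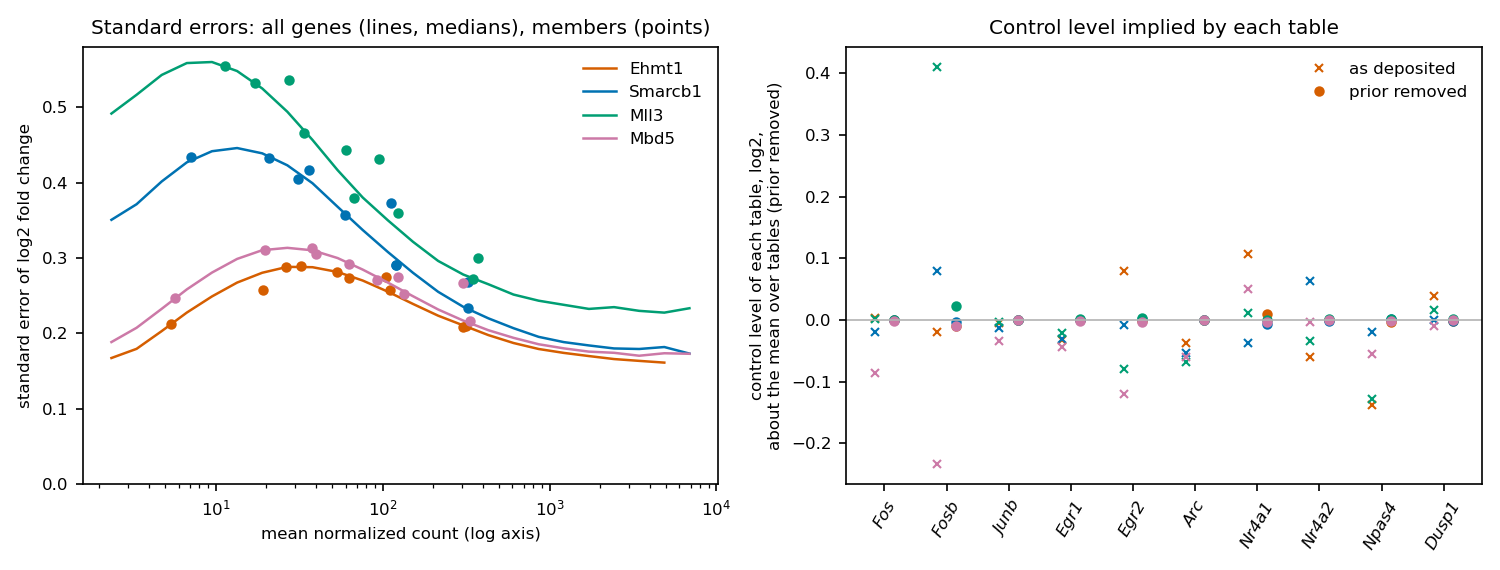
The left panel plots the standard error of the log2 fold change against the mean normalized count (log axis), with lines for the median of all genes in bins and points for the 10 members, coloured by comparison. The right panel plots, for each member, the log2 control level implied by each of the 4 tables about its mean, with crosses for fold changes as deposited and circles after the prior was removed. The circles lie together near 0, while the crosses of Fosb spread from about the lowest to the highest point of the panel.

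No member passed an adjusted p-value of 0.05 in any of the 4 authors' deposited tables, whose columns are those of DESeq2's Wald test. Of all tested genes, 3.44% (Ehmt1), 11.1% (Smarcb1), 9.86% (Mll3) and 3.57% (Mbd5) passed it. Fosb carried no adjusted p-value in the Ehmt1, Smarcb1 and Mbd5 tables because of its low mean count, which left 9 members tested there and 10 for Mll3. At an unadjusted p-value under 0.05 there were 0 members in Ehmt1 (background 9.44%), 1 in Smarcb1 (19.0%), 1 in Mll3 (17.3%) and 2 in Mbd5 (12.5%). These were Nr4a2, higher in the Smarcb1 knockdown, Arc, lower in the Mll3 knockdown, and Fos and Junb, lower in the Mbd5 knockdown. At an adjusted p-value under 0.1, Nr4a2 passed in Smarcb1 (background 14.3%) and Fos in Mbd5 (5.47%), and no member did in Ehmt1 (4.34%) or Mll3 (12.3%). These shares of members were near the background, and nothing particular to the members is read from them.

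In the authors' deposited tables the 10 members had a median log2 fold change of -0.046 (Ehmt1), -0.13 (Smarcb1), -0.24 (Mll3) and -0.16 (Mbd5). The medians of all genes were -0.010, 0.010, 0.026 and 0.00067. Below 0 lay 7 members in Ehmt1, 7 in Smarcb1, 6 in Mll3 and 9 in Mbd5, where 51.9%, 48.8%, 47.6% and 49.9% of all genes did. The 4 comparisons share one control, so these counts are not separate evidence, and they were not tested.

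**Figure D2:**
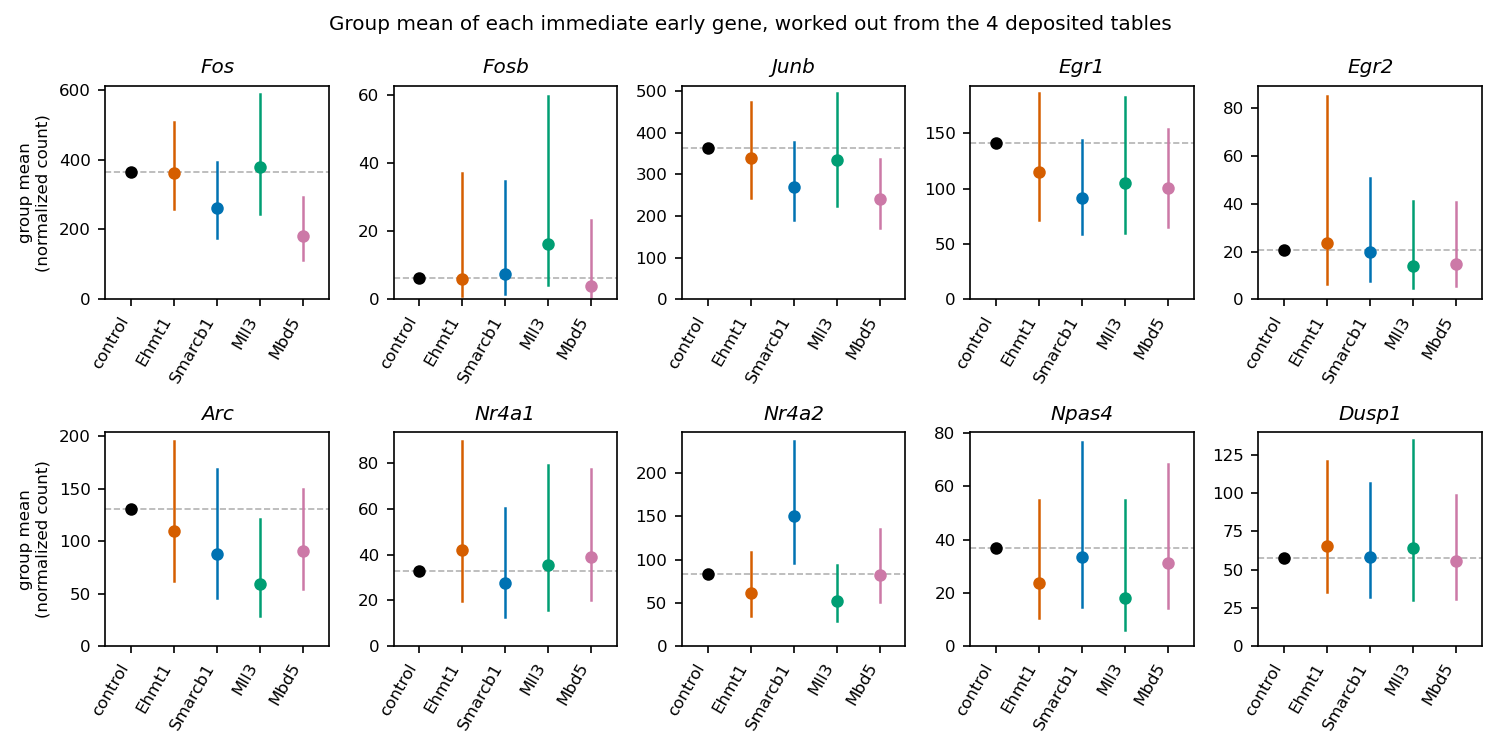
Group means in normalized counts (linear axes from 0) of the 10 members in the control (black) and the 4 knockdowns (coloured), worked out from the deposited tables after the prior was removed. Bars are 95% intervals of the knockdown over the control, scaled to the control level, and the dashed line marks the control. Fos in Mbd5, Junb in Mbd5, Arc in Mll3 and Nr4a2 in Smarcb1 have bars that leave the control line.

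Of the AP-1 subunits, Fos stood furthest below the control, in the Mbd5 knockdown. Its group mean was 364 normalized counts in the control, 362 in the Ehmt1 knockdown, 262 in Smarcb1, 378 in Mll3 and 181 in Mbd5. Mbd5 stood lowest and Smarcb1 next, while Ehmt1 and Mll3 were within a few percent of the control. The Mbd5 level was 49.8% of the control (95% interval 30.9 to 80.1%). The log2 fold change in the authors' deposited table for Mbd5 was -0.77 (SE 0.27), with p = 0.0041 and adjusted p = 0.082, which misses the threshold. Its score there was at the percentile 2.96 of all genes. For Smarcb1 the level was 71.8% of the control (interval 48.0 to 108%), with adjusted p = 0.38 from the authors' deposited table. For Ehmt1 the interval was 70.8 to 139% of the control, and for Mll3 66.7 to 161%.

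Junb, whose product pairs with Fos proteins, had group means of 363 normalized counts in the control, 339 in Ehmt1, 269 in Smarcb1, 334 in Mll3 and 239.9 in Mbd5. Mbd5 was lowest and Smarcb1 next, as for Fos, and Ehmt1 and Mll3 lay close to the control. In Mbd5, Junb was at 66.1% of the control (interval 47.0 to 93.0%), with a log2 fold change of -0.51 (SE 0.22), p = 0.017 and adjusted p = 0.196, all from the authors' deposited table. In Smarcb1 it was at 74.2% (52.7 to 104%). The Ehmt1 and Mll3 levels were 93.5% (66.9 to 131%) and 92.2% (62.1 to 137%).

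Fosb, which encodes a further Fos family subunit, was near the lower end of detection. Its group means were 6.32 normalized counts in the control, 6.15 in Ehmt1, 7.51 in Smarcb1, 16.5 in Mll3 and 4.05 in Mbd5. The Mll3 group was the highest, at 256% of the control level of its own table, with an interval from 69.4 to 946%. In the authors' deposited table for Mll3 its log2 fold change was 0.78 (SE 0.55) with an adjusted p-value of 0.51. It would have needed a deposited log2 fold change of 1.56 for a call there, on the scale of the 0.78. The 256% is on the scale with the prior removed, where the log2 fold change was 1.36 (SE 0.96). That value cannot be set against the 1.56.

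Egr1, a zinc finger factor widely used as a marker of recent activity, had group means of 141 normalized counts in the control, 115 in Ehmt1, 91.9 in Smarcb1, 105 in Mll3 and 100.2 in Mbd5. All 4 knockdowns lay below the control, and the 4 were close to each other. The Smarcb1 level was 65.2% of the control (interval 41.7 to 102%), with a log2 fold change of -0.54 (SE 0.29), p = 0.062 and adjusted p = 0.27, all from the authors' deposited table. The Mbd5 level was 71.2% (46.3 to 109%), the Mll3 level 74.4% (42.8 to 129%) and the Ehmt1 level 81.9% (50.8 to 132%). Each interval includes the control. The control libraries are the same in the 4 comparisons, so the 4 values do not support each other.

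Egr2, which shares the CArG box and TGACG arrangement shown above, did not follow the same order. Its group means were 20.6 normalized counts in the control, 23.7 in Ehmt1, 19.9 in Smarcb1, 13.8 in Mll3 and 15.0 in Mbd5. The Smarcb1 level was 96.3% of the control (interval 37.7 to 246%), beside 65.2% for Egr1. The interval of Egr1 lies within that of Egr2, and the difference between the 2 genes was not tested. In the authors' deposited tables the adjusted p-values of Egr2 lay between 0.81 (Mll3) and 0.99 (Ehmt1).

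Of the orphan nuclear receptors, Nr4a2 was the one member that stood higher in a knockdown with an unadjusted p-value under 0.05. Nr4a2 (Nurr1) is best known for its part in dopamine neurons and is also induced by activity in cortical cells. Its group means were 83.3 normalized counts in the control, 61.6 in Ehmt1, 151 in Smarcb1, 52.1 in Mll3 and 82.7 in Mbd5. The Smarcb1 group was the highest, Mbd5 lay at the control level, and Ehmt1 and Mll3 were lower. In Smarcb1 the level was 181% of the control (interval 116 to 284%). The log2 fold change in the authors' deposited table was 0.76 (SE 0.29), with p = 0.0093 and adjusted p = 0.074. It would have passed at a deposited log2 fold change of 0.81. The Mll3 level was 62.4% (34.5 to 113%) and the Ehmt1 level 73.9% (42.0 to 130%), with adjusted p-values of 0.44 and 0.87 in the authors' deposited tables.

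Nr4a1 (Nur77), the close relative of Nr4a2, had group means of 32.7 normalized counts in the control, 42.1 in Ehmt1, 27.7 in Smarcb1, 35.3 in Mll3 and 39.1 in Mbd5. Its lowest group was Smarcb1, where Nr4a2 was highest. The level in Smarcb1 was 85.1% of the control (interval 39.3 to 185%). The highest level, in Ehmt1, was 128% (59.7 to 274%). The adjusted p-values of Nr4a1 in the authors' deposited tables were at least 0.87.

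Npas4, the calcium-induced factor that controls inhibitory synapses on excitatory neurons, had group means of 36.7 normalized counts in the control, 23.8 in Ehmt1, 33.5 in Smarcb1, 17.9 in Mll3 and 31.0 in Mbd5. Mll3 was lowest, at 48.6% of the control, but with an interval from 15.8 to 149%. The Ehmt1 level was 65.1% (28.3 to 150%). The adjusted p-value was 0.58 for Mll3 in the authors' deposited table and higher in the other 3. Npas4 is thus a member for which a level less than 50% of the control, as in Mll3, was not told apart from no change.

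Arc, the synaptic effector, had group means of 131 normalized counts in the control, 110.1 in Ehmt1, 88.0 in Smarcb1, 59.1 in Mll3 and 90.3 in Mbd5. The control was highest and Mll3 lowest, with Smarcb1 and Mbd5 nearly equal between them. In Mll3, Arc was at 45.2% of the control (interval 22.1 to 92.4%), with a log2 fold change of -0.94 (SE 0.43), p = 0.029 and adjusted p = 0.19, all from the authors' deposited table. Its levels in Smarcb1, Mbd5 and Ehmt1 were 67.3% (35.0 to 129%), 69.0% (41.7 to 114%) and 84.2% (47.5 to 149%).

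Dusp1, the phosphatase that ends MAP kinase signalling, varied least between the groups. Its group means were 57.5 normalized counts in the control, 65.2 in Ehmt1, 58.3 in Smarcb1, 63.8 in Mll3 and 55.4 in Mbd5. The levels ran from 96.2% of the control (interval 53.9 to 172%) in Mbd5 to 113% (61.0 to 211%) in Ehmt1. Those intervals still allow a change of more than 1.5-fold in either direction.

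**Figure D3:**
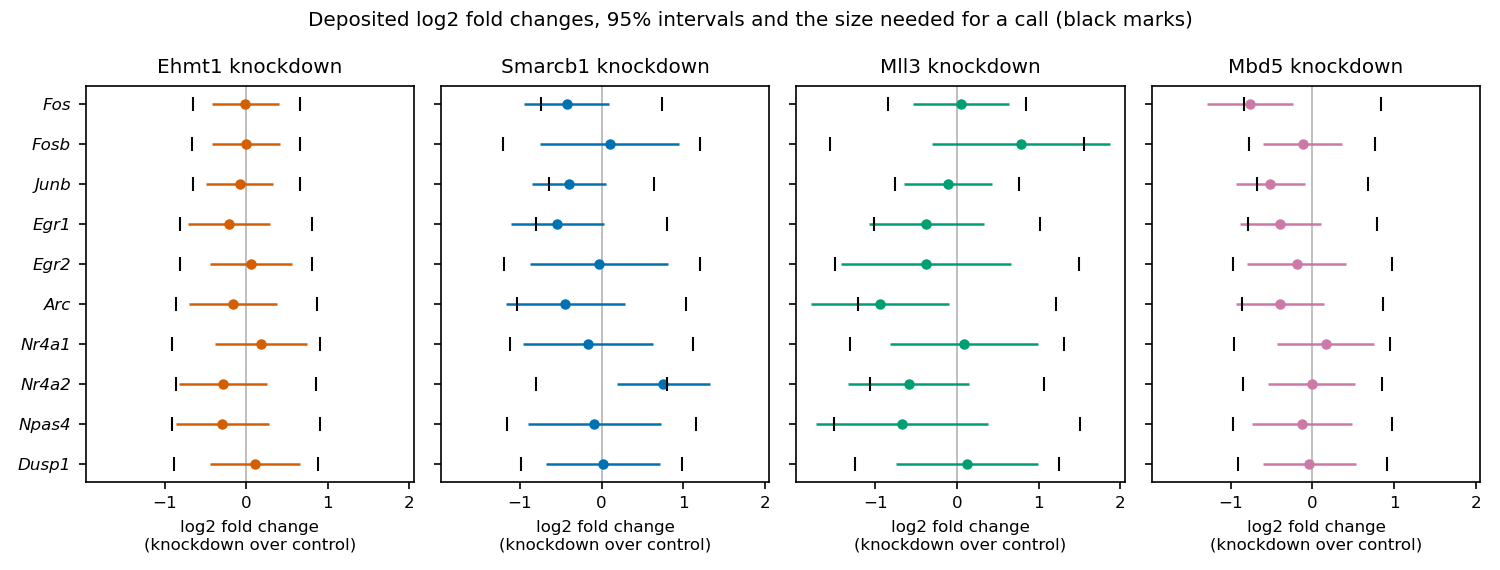
Deposited log2 fold changes (knockdown over control) of the 10 members in the 4 comparisons, with 95% intervals as bars. Black marks give the size at which each gene would have reached the score of the weakest call in that table. The points of Nr4a2 in Smarcb1 (0.76, mark at 0.81) and Fos in Mbd5 (-0.77, mark at 0.83 below 0) lie nearest to theirs. Bars and marks are on the deposited scale. The bar of Fosb in Ehmt1 runs from -0.42 to 0.41, against -2.62 to 2.56 with the prior removed. Fosb has no adjusted p-value in Ehmt1, Smarcb1 and Mbd5, so its marks there could not have given a call.

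The size of a change that could have been called differed between members and tables. The weakest calls in the authors' deposited tables had absolute scores of 3.14 (Ehmt1), 2.78 (Smarcb1), 2.81 (Mll3) and 3.13 (Mbd5). At the deposited SEs, Fos would have needed an absolute log2 fold change of 0.66 in Ehmt1, 0.74 in Smarcb1, 0.84 in Mll3 and 0.83 in Mbd5. Npas4 would have needed 0.90, 1.16, 1.51 and 0.98. These sizes are on the deposited scale, which the apparent prior narrowed by a different amount in each table. They are smaller than the changes needed with the prior removed, and their order between tables need not hold there. For Npas4 in Ehmt1, Smarcb1, Mll3 and Mbd5 the deposited SEs were 0.29, 0.42, 0.54 and 0.31. With the prior removed they were 0.61, 0.61, 0.83 and 0.58, in the same order. Errors were also compared with those of the 500 genes nearest in mean count, after removal of the prior. Arc had a larger error than the median of those genes in all 4 tables, by 1.21 (Ehmt1), 1.38 (Smarcb1), 1.30 (Mll3) and 1.12 times (Mbd5). The error of Fos was 1.39 times that of like genes for Mbd5 and 1.01 times for Ehmt1. Junb, with nearly the same mean count as Fos, was between 0.993 and 1.02 times in all 4. Over the 10 members the median ratio was 0.997, 0.981, 1.05 and 1.01 for Ehmt1, Smarcb1, Mll3 and Mbd5, so a larger error was not general among them.

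**Figure D4:**
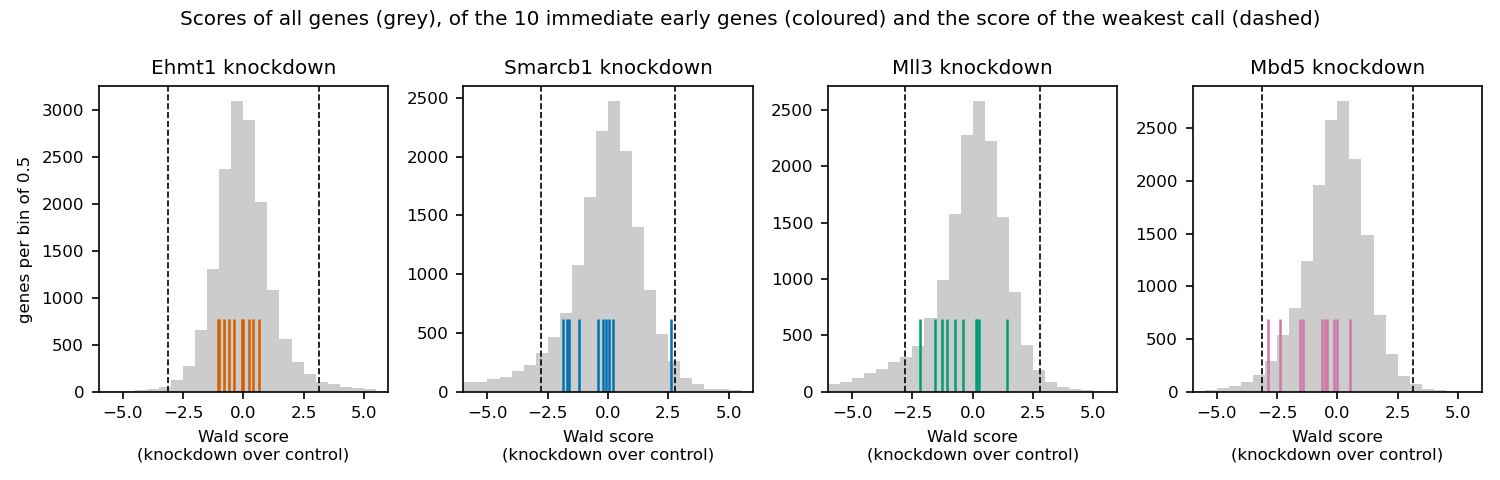
Histograms of the Wald score (knockdown over control) of all genes in each comparison, in grey, with the 10 members as coloured lines and the score of the weakest call as dashed lines. All coloured lines lie between the dashed lines, with Nr4a2 in Smarcb1 (percentile 97.1 of all genes) and Fos in Mbd5 (percentile 2.96) nearest to them.

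Whether a member stood differently in one knockdown than in another was compared directly for the 6 pairs of tables. The difference of the deposited log2 fold changes was divided by an error summed as if the tables had no library in common. That makes calls too rare where the tables share a control. The apparent prior had an SD of 0.58 in Ehmt1, 0.89 in Smarcb1, 1.12 in Mll3 and 0.63 in Mbd5. Equal changes would therefore be deposited as unequal values, which distorts these differences. P-values (two-sided, normal) were adjusted over all genes of the pair. Fosb was not tested in any pair, since it lacks an adjusted p-value in 3 of the tables. None of the other 9 members passed an adjusted p-value of 0.05 in any pair. The share of all genes that did was 9.96% for Ehmt1 minus Smarcb1, 10.1% for Ehmt1 minus Mll3 and 5.55% for Ehmt1 minus Mbd5. It was 0.55% for Smarcb1 minus Mll3, 3.51% for Smarcb1 minus Mbd5 and 4.99% for Mll3 minus Mbd5. At an unadjusted p-value under 0.05 there was 1 member in each of 4 pairs: Ehmt1 minus Smarcb1 (background 20.3%), Ehmt1 minus Mbd5 (17.3%), Smarcb1 minus Mll3 (4.1%) and Mll3 minus Mbd5 (13.9%). There was none for Ehmt1 minus Mll3 (19.9%) or for Smarcb1 minus Mbd5 (11.4%).

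The member was Nr4a2 in both pairs of Smarcb1. Its difference was -1.04 on the log2 scale for Ehmt1 minus Smarcb1 (95% interval -1.83 to -0.26, adjusted p = 0.076) and 1.35 for Smarcb1 minus Mll3 (0.41 to 2.28, adjusted p = 0.36). In both pairs of Mbd5 the member was Fos. Its difference was 0.76 for Ehmt1 minus Mbd5 (0.092 to 1.42, adjusted p = 0.20) and 0.81 for Mll3 minus Mbd5 (0.028 to 1.60, adjusted p = 0.32).

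The control levels described above match in all tables, so the comparisons share their control libraries. A control that contributes as much to the error as the knockdown gives a pair of comparisons with like errors a correlation of 0.5. With the prior removed, the SE of Fos was 0.25 in Ehmt1, 0.32 in Mll3 and 0.35 in Mbd5. That of Nr4a2 was 0.42 in Ehmt1, 0.33 in Smarcb1 and 0.44 in Mll3. These errors are unlike, so for these genes a correlation of 0.5 need not hold. With that correlation, Nr4a2 passed for Ehmt1 minus Smarcb1 (adjusted p = 0.0019, with 23.7% of all genes past the threshold) and for Smarcb1 minus Mll3 (adjusted p = 0.0066, 2.61%). Fos passed for Ehmt1 minus Mbd5 (adjusted p = 0.014, 19.7%) and for Mll3 minus Mbd5 (adjusted p = 0.034, 13.9%). None of the 9 members passed for Ehmt1 minus Mll3 (21.8%) or Smarcb1 minus Mbd5 (11.2%).

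With the prior removed as well, both fold changes of a pair are on one scale. Nr4a2 then differed by -1.30 on the log2 scale for Ehmt1 minus Smarcb1 (95% interval -2.04 to -0.55, adjusted p = 0.0050, background 22.4%) and by 1.54 for Smarcb1 minus Mll3 (0.77 to 2.31, adjusted p = 0.0071, 2.54%). Fos differed by 0.99 for Ehmt1 minus Mbd5 (0.38 to 1.61, adjusted p = 0.012, 19.4%) and by 1.06 for Mll3 minus Mbd5 (0.39 to 1.72, adjusted p = 0.017, 13.5%). Nr4a2 in Smarcb1 minus Mbd5 missed the threshold in both settings (adjusted p = 0.057 and 0.091, background 10.5% in the latter), and none of the 9 members passed for Ehmt1 minus Mll3 (21.5%). The number of libraries per group is not stated, so the correlation is an assumption, and these calls rest on it: the prior removed alone gave none.

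Among 8901 genes with a mean of at least 100 normalized counts in every table, those nearest to the median profile of the members over the 4 comparisons were ENSRNOG00000017849 and ENSRNOG00000015888, at Euclidean distances of 0.050 and 0.054 on the log2 scale. Their log2 fold changes in the authors' deposited tables were between -0.24 and -0.030 and between -0.20 and -0.066, and neither identifier is paired with a symbol here.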

How the data were processed

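RNA sequencing of rat cortical neurons was available as 4 tables of the authors' own comparisons. The submitters' processing notes name STAR 2.5.2b, DESeq2 and the build Rnor_6.0, with no role or order. Per the file headers, each row holds a mean normalized count (a signal: counts divided by size factors), a log2 fold change with its standard error, a Wald score, a p-value and an adjusted p-value, all computed by the authors. No test was refitted. Rows of unmapped, multimapping, featureless and ambiguous reads (43.9% to 46.5% of normalized counts) were left out of gene counts.

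A gene counted as changed at a deposited adjusted p-value under 0.05. Directions, group means (control share 0.5), removal of the prior and differences between knockdowns were computed with Python 3.11.15, numpy 2.4.6, pandas 2.3.3 and scipy 1.17.1. All but the group means were also run on simulated data. Those data were built with the same form of prior and a shared control error, so they do not test these assumptions. Removal of the prior was scored there only for genes well above the mean count of highest SE. The removal takes an SE as the square root of the information divided by the information plus the prior precision. Genes at or above the mean count of highest SE were given the larger root. Removal of the prior was chosen after the data were seen. Members, gene lists and tests were chosen with earlier results of these data known. Named genes are the 10 members and the genes nearest to their median profile. Further gene lists were not analysed here, since the identifiers could not be matched to symbols. Precision is that of the deposited SEs. Intervals are at 95%.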

Additional observations from a re-analysis of the deposited data

How the results depend on the processing

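The count of members past the threshold was 0 in all 4 comparisons as reported. It became 1 for Smarcb1 (Nr4a2) and 1 for Mbd5 (Fos) at an adjusted p-value under 0.1. At 0.1, 14.3% and 5.47% of all tested genes passed in these 2 comparisons. The count stayed 0 with adjustment over all gene rows of a table or over the 4 tables together. It was also 0 at 0.01, with a minimum log2 fold change of 1, and against the median of all genes tested. Those settings cannot add a call to a count of 0, so their outcome was fixed in advance. For differences between knockdowns, the count went from 0 to 1 for Ehmt1 and Smarcb1, Ehmt1 and Mbd5, Smarcb1 and Mll3, and Mll3 and Mbd5 with a correlation of 0.5 between tables, and likewise to 1 in each of these pairs with the prior removed and a correlation of 0.5. It stayed 0 with the prior removed alone. An adjusted p-value under 0.01 was applied only without the correlation, where the count of 0 at 0.05 had fixed the outcome. With the correlation, the test of the difference gave Nr4a2 adjusted p-values of 0.0019 (Ehmt1 and Smarcb1) and 0.0066 (Smarcb1 and Mll3). Those of Fos were 0.014 (Ehmt1 and Mbd5) and 0.034 (Mll3 and Mbd5).

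Reading all tables with one sign turns the Ehmt1 values round: Egr1 would be 0.21, Arc 0.16, Nr4a1 -0.18, Nr4a2 0.29 and Npas4 0.29 on the log2 scale. Removing the prior moved the log2 fold change by more than its deposited SE for Npas4 in Ehmt1 (-0.62), Fosb in Mll3 (1.36) and Fosb in Mbd5 (-0.63), and by less in the other 37 values. A control share of 0.4 or 0.6 moved no control level by more than 0.13 on the log2 scale, and fold changes as deposited moved none by more than 0.39. The planned removal of a prior with an SD equal to the highest SE was not run, because SEs fall again at low means and that form has no solution there. No paired analysis was possible because the tables used here give comparisons and not single libraries, and for the same reason no library was left out.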
